A study of Mus musculus with 2 samples.

Results

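The genes described here encode the giant filament proteins, the M-band, the myosin binding proteins and the factors that assemble the sarcomere: Ttn, Neb, Myom1, Myom2, Mybpc1, Mybpc2, Mybph, Lmod3, Unc45b and Smyd1. They are 10 of the 18193 genes named on the array, taken by symbol with every probe set that the platform annotation assigns to them, 25 in all. Their signal was compared between 1 culture of Foxj3 knockout (KO) mouse skeletal myoblasts and 1 culture of wild-type (WT) myoblasts. Myoblasts are the dividing precursors of muscle fibres, and Foxj3 encodes a forkhead transcription factor. Both cultures were at passage 3, grew in DMEM with 20% fetal bovine serum and were harvested at 80% confluency, and no differentiation medium is mentioned. RNA of each culture was hybridised to 1 Affymetrix Mouse430_2 array. With n = 1 array per genotype there is no spread between cultures, no test was possible, and every value describes these 2 arrays. The part of Foxj3 that the knockout removes, the strain, and the number of animals behind each culture are not given in the sources used here.

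A sarcomere is the contractile unit of muscle, in which thick filaments of myosin slide along thin filaments of actin. Titin, the product of Ttn, spans from the Z-disc at the sarcomere's edge to the M-band at its centre and acts as a spring and a scaffold. Nebulin runs along the thin filament, myomesins crosslink thick filaments at the M-band, and myosin binding proteins decorate the thick filament. Assembly also needs folding and building factors, among them Unc45b and Smyd1 for myosin and Lmod3 for actin. Most of these genes are switched on as myoblasts leave the cell cycle and fuse.

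The KO array was lower than the WT array for all 9 of these genes that could be measured, and 6 of the 9 were at least 2-fold lower. The 6 were Lmod3, Myom1, Myom2, Mybph, Smyd1 and Ttn, and 0 of the 9 reached 2-fold in the other direction. Over all 14597 measured genes, 6.72% were at least 2-fold lower and 3.73% at least 2-fold higher. KO over WT, the log2 ratio had a median of -2.00 for the 9 genes and -0.06 for all measured genes. The median of the 9 is the value of Smyd1, whose probe sets disagreed in direction. Without Smyd1 it was -1.68, with 5 of 8 genes past 2-fold. A value counts as measured over a detection floor of 47.04, the 40th percentile of both arrays pooled. Values under it were set to it, which makes the ratio a bound, written as "at least". A gene is represented by its probe set with the highest mean log2 signal. Probe sets of 1 gene were the only measure of technical spread. For 3047 genes with exactly 2 probe sets measured on both arrays, the SD of a log2 ratio was 0.63 per probe set, and both ratios had the same sign in 52.8%.

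**Figure D1:**
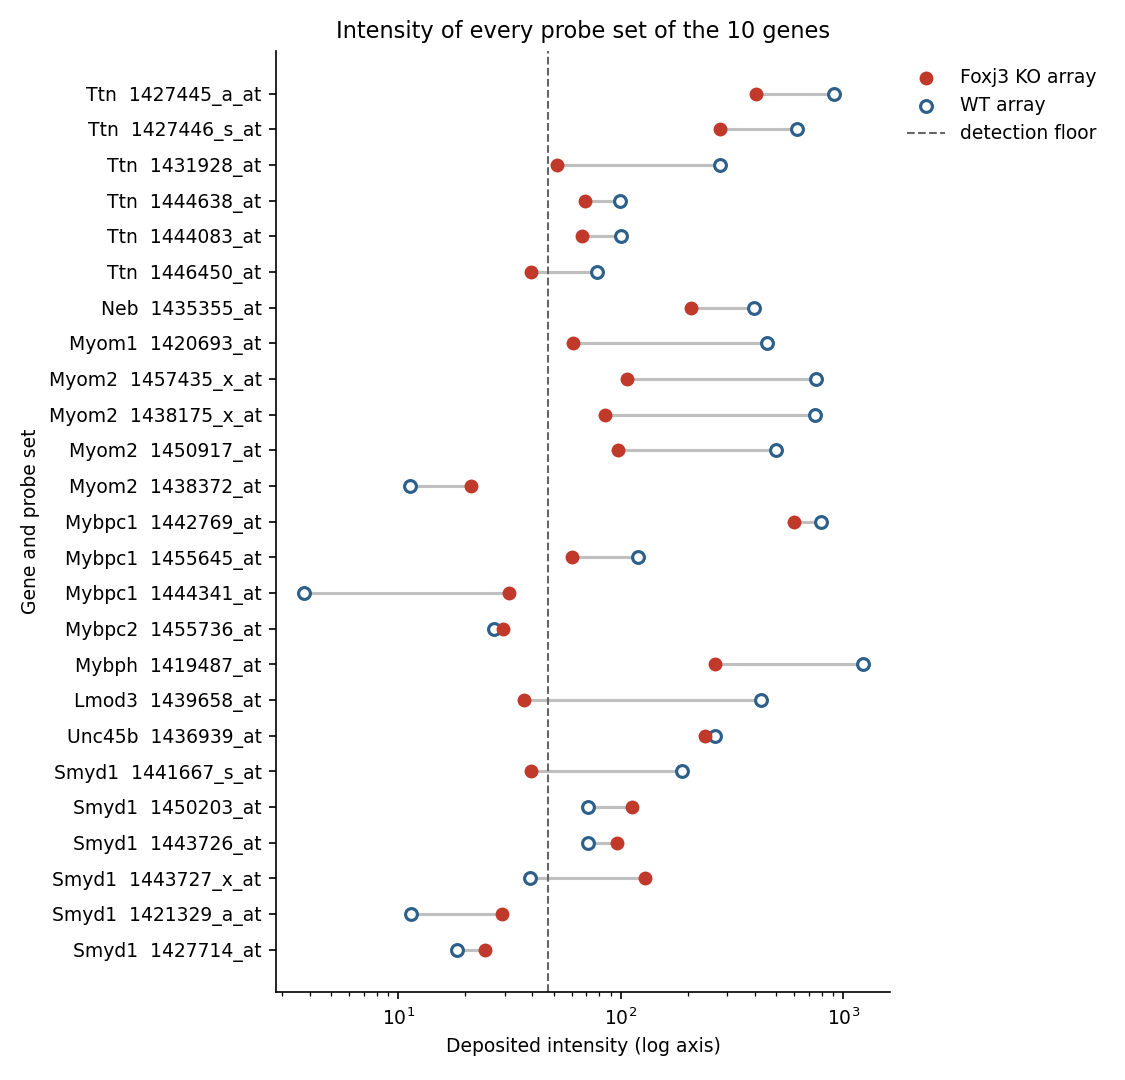
Deposited intensity (log axis) of each of the 25 probe sets of the 10 genes on the KO array (filled) and the WT array (open), with the detection floor of 47.04 as a dashed line. The probe sets of Ttn, Neb, Myom1, Mybph, Lmod3 and Unc45b lie lower on the KO array, and those of Smyd1 point both ways.

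The targeted gene gave a mixed picture on these arrays. Its brightest probe set, 1435362_at, read 77.28 on the KO array and 495.51 on the WT array, while 1438220_at read 99.40 on the KO array and 79.74 on the WT array. The third probe set, 1459055_at, did not reach the floor. Which of them lie in the deleted part is not known here, so Foxj3 does not settle whether the labels are right. The arrays had medians of 63.94 (KO) and 62.03 (WT), 60.8% (KO) and 59.2% (WT) of probe sets over the floor, and 40 of 42 scanner record fields in common.

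Ttn was lower in KO myoblasts at all 6 of its probe sets. The brightest, 1427445_a_at, read 402.98 on the KO array and 904.15 on the WT array, a 2.24-fold lower signal (log2 ratio -1.17). The second, 1427446_s_at, read 279.35 on the KO array and 617.81 on the WT array (log2 ratio -1.15). Both carry the same source accession, so they are not independent readings of the gene. The difference at 1431928_at was larger, with 51.38 on the KO array and 278.97 on the WT array, 5.43-fold lower (log2 ratio -2.44). The other probe sets were nearer the floor. The probe set 1444638_at read 69.35 on the KO array and 99.46 on the WT array, and 1444083_at read 66.86 on the KO array and 99.72 on the WT array. The last, 1446450_at, read 39.26 on the KO array, under the floor, and 78.22 on the WT array, at least 1.66-fold lower. The 6 log2 ratios ran from -2.44 to -0.52, and 3 of 6 were at least 2-fold lower. The ratio of the brightest was 1.84 times the SD of a probe set and ranked 470 from the lowest of 12397 genes measured on both arrays. Titin is made in many splice forms, and the files do not say which exons each probe set reads.

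Neb, which encodes nebulin, was lower by slightly less than the 2-fold threshold. Its single probe set, 1435355_at, read 206.97 on the KO array and 397.83 on the WT array, 1.92-fold lower (log2 ratio -0.94). That is 1.49 times the SD of a probe set, so it is not clearly outside the disagreement seen between probe sets. Of the relatives of nebulin, only Nrap differed by more than the SD of a probe set at its brightest probe set. Nrap, a nebulin-related protein of forming myofibrils, read 63.59 on the KO array and 297.44 on the WT array, 4.68-fold lower. Nebl, which encodes the smaller relative nebulette, read 72.60 on the KO array and 51.71 on the WT array (log2 ratio 0.49). The WT value is near the floor, and the other probe sets of Nebl were under the floor on both arrays. Lasp1, a nebulin repeat protein of non-muscle actin, read 855.36 on the KO array and 850.61 on the WT array. Its other measured probe sets had log2 ratios from -0.43 to 0.92.

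Of the 10 genes, those of the M-band had the largest differences with a value over the floor on both arrays. Myom1, which encodes myomesin 1, read 60.74 on the KO array and 455.23 on the WT array at its single probe set. The KO signal was 13.3% of the WT signal (7.49-fold lower, log2 ratio -2.91). That KO value lies near the floor of 47.04 and under the KO array median of 63.94. Myom2, which encodes a myomesin of adult fast and cardiac muscle, was lower at the 3 probe sets over the floor. They read 106.66, 85.25 and 96.90 on the KO array, against 750.26, 746.68 and 497.21 on the WT array, in the order 1457435_x_at, 1438175_x_at and 1450917_at. The log2 ratios of these probe sets were -2.81, -3.13 and -2.36, and no other gene of the 10 had several probe sets that were all at least 2-fold lower. The fourth, 1438372_at, stayed under the floor, at 21.13 on the KO array and 11.23 on the WT array. Among the 12397 genes measured on both arrays, Myom1 and Myom2 ranked 12 and 14 from the lowest log2 ratio. The third myomesin, Myom3, read 31.16 on the KO array and 267.80 on the WT array, at least 5.69-fold lower. Obsl1, which encodes a cytoskeletal adaptor that binds titin and myomesin, was close on both arrays at its brightest probe set, with 153.37 (KO) and 170.91 (WT). Its other probe sets disagreed in size. The log2 ratio was -0.72 at 1460414_at and 0.12 at 1443510_at. At 1457121_at the signal was at least 2.28-fold lower on the KO array, and at 1436414_at at least 1.53-fold lower.

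The myosin binding proteins were not alike. Mybph, which encodes myosin binding protein H, read 264.92 on the KO array and 1219.90 on the WT array, 4.60-fold lower (log2 ratio -2.20), and ranked 42 of 12397 from the lowest. Mybpc1, the slow form of myosin binding protein C, read 598.92 on the KO array and 791.28 on the WT array at 1442769_at (log2 ratio -0.40), a difference smaller than the SD of a probe set. Its probe set 1455645_at read 60.56 on the KO array and 119.07 on the WT array (log2 ratio -0.98), and 1444341_at stayed under the floor. Mybpc2, the fast form, was not measured, with 29.38 on the KO array and 26.85 on the WT array at its 1 probe set. Of the 2 relatives examined, Mybpc3, the cardiac form, was under the floor on both arrays. Mybphl, which encodes an H-like protein known from the heart, read 249.57 on the KO array and 104.64 on the WT array, 2.39-fold higher. Within this family, then, 1 of 3 measured genes was at least 2-fold lower and 1 at least 2-fold higher. Of all measured genes, 6.72% were at least 2-fold lower and 3.73% at least 2-fold higher.

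Among the assembly factors, Lmod3 had the largest difference of the 10 genes at the floor used and Unc45b the smallest of the 9 measured. With the floor at the 60th percentile the log2 ratio of Lmod3 was -2.30, beside -2.81 for Myom2 and -2.40 for Myom1. At that floor the values of Lmod3 and Myom1 are both bounds, so their order does not rank these genes. Lmod3 encodes leiomodin 3, which nucleates actin and is needed for thin filaments of normal length. It read 36.61 on the KO array, under the floor, and 425.70 on the WT array, at least 9.05-fold lower (log2 ratio at the bound -3.18). Unc45b, which encodes a co-chaperone that folds the myosin head together with Hsp90, read 239.59 on the KO array and 265.39 on the WT array (1.11-fold lower, log2 ratio -0.15). Of 12397 genes, 44.6% had a ratio as low as that of Unc45b or lower, so it lay in the middle of the distribution.

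Smyd1, a muscle methyltransferase that binds myosin and is needed for sarcomere organisation in zebrafish, gave no settled direction. Its probe set with the highest mean signal, 1441667_s_at, read 39.49 on the KO array and 188.58 on the WT array, at least 4.01-fold lower. The 3 other measured probe sets were higher on the KO array. The probe set 1450203_at read 112.58 on the KO array and 71.14 on the WT array, and 1443726_at read 96.29 on the KO array and 70.87 on the WT array. The probe set 1443727_x_at, which shares its source accession with 1443726_at, read 128.80 on the KO array and 38.92 on the WT array, at least 2.74-fold higher. The probe sets 1421329_a_at and 1427714_at were under the floor on both. The mean log2 ratio over the 4 measured probe sets was 0.14, so the count of 6 lower genes includes Smyd1 by 1 probe set only.

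**Figure D2:**
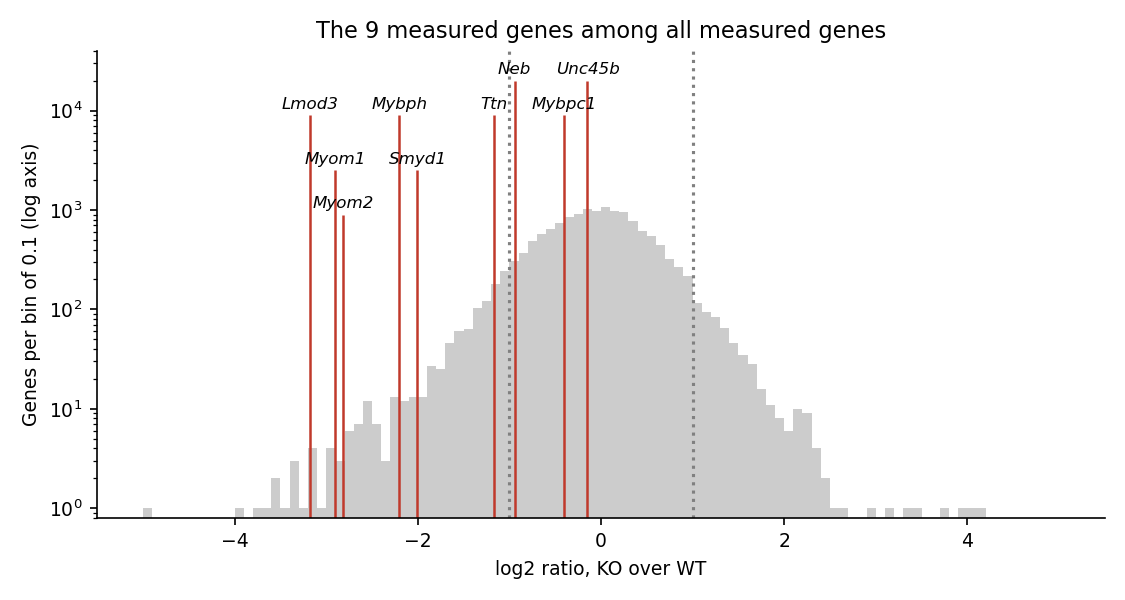
Histogram of the log2 ratio, KO over WT, of all 14597 measured genes (bins of 0.1, log axis for the number of genes, ratios beyond 5 in size drawn at the limit), with the 9 measured genes as red lines and 2-fold as dotted lines. Lmod3, Myom1, Myom2, Mybph and Smyd1 lie at -2.00 or below, and Mybpc1 and Unc45b in the middle of the histogram. The line heights serve only to separate the names, and the values of Lmod3 and Smyd1 are bounds.

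Counted by probe set, 20 of the 25 exceeded the floor on 1 array or both. Of these 20, 17 were lower on the KO array and 10 at least 2-fold lower, while 3 were higher and 1 at least 2-fold higher. All 3 higher ones belong to Smyd1. Over all 25057 named probe sets measured, 51.1% were lower, 6.67% at least 2-fold lower and 5.62% at least 2-fold higher. Probe sets of 1 gene share a transcript and are not independent. Asking that every measured probe set of a gene be at least 2-fold lower, a rule added after the values were seen, left 4 of the 9 genes, Myom1, Myom2, Mybph and Lmod3, and 3.52% of all measured genes. Of those 4, only Myom2 had more than 1 measured probe set.

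The stretch before the transcription start is shown for the 3 genes of the RefSeq table of starts that were measured on both arrays and differed at least 2-fold, with Unc45b, which was nearly level, beside them. Starts were listed for 7 of the 10 genes. The 250 bases before each start were searched on both strands for the E-box CANNTG, bound by MyoD and myogenin, the MCAT element CATTCC, bound by TEAD factors, the MEF2 consensus, the CArG box of serum response factor, and the forkhead core GTAAACA. Capitals mark the matches, and each sequence runs 5′ to 3′ on the strand of the gene (RefSeq, GRCm38.p6). The Ttn stretch is chr2:76982548-76982797 on the minus strand, Myom1 is chr17:71019307-71019556 on the plus strand, Mybph is chr1:134193198-134193447 on the plus strand and Unc45b is chr11:82911003-82911252 on the plus strand.
Ttn: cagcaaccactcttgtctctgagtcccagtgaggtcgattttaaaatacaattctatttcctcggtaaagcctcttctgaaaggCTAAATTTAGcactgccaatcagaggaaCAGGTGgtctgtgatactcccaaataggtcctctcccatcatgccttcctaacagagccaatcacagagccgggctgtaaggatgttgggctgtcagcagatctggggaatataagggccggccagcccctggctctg
Myom1: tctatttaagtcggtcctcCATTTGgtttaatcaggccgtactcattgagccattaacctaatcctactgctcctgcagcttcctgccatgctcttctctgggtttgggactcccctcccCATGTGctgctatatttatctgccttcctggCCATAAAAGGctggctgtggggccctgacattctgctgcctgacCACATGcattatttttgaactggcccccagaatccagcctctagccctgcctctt
Mybph: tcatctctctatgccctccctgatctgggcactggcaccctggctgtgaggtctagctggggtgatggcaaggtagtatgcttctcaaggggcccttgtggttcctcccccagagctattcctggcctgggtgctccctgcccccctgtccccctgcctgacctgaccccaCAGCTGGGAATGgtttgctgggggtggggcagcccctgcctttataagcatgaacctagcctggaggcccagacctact
Unc45b: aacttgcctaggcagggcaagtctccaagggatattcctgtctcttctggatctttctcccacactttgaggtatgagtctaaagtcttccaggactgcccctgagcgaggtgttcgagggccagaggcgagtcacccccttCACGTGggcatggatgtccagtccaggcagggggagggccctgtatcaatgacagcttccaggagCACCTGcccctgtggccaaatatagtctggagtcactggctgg
Ttn held 1 match to the MEF2 consensus, 166 bases before the start, and 1 E-box. Myom1 held 1 CArG box, 99 bases before the start, and 3 E-boxes. Mybph held 1 E-box, 79 bases before the start, followed directly by 1 MCAT element on the other strand, while Unc45b held 2 E-boxes. Over all 32851 listed stretches of the same length, 66.2% held an E-box, 12.6% an MCAT element, 2.92% the MEF2 consensus, 1.47% a CArG box and 3.17% the forkhead core. None of the 7 listed genes held the forkhead core in this stretch. The array measures no binding, so these matches describe letters only, and the level gene Unc45b holds E-boxes as do the lower ones.

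A list of 42 partner genes covers proteins that bind titin, nebulin or Lmod3, relatives of the families above and the myosin chaperones. Of its members, 39 had a named probe set and 36 were measured. On the KO array 12 of the 36 were at least 2-fold lower and 2 at least 2-fold higher, against 6.72% and 3.73% of all measured genes. The median log2 ratio was -0.14, beside -0.06 for all measured genes, and 22 of the 36 differed by less than 2-fold. Of the 12 lower genes, 11 rested on a single measured probe set and 6 had a bound.

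Ligases and signalling partners of the M-band end of titin were among the lower genes. Trim54 and Trim63, which encode the RING-finger proteins MuRF3 and MuRF1, read 40.82 and 23.70 on the KO array, against 305.70 and 174.86 on the WT array. They were at least 6.50-fold and at least 3.72-fold lower. Speg, a kinase gene of striated muscle, was 2.55-fold lower at its brightest probe set, with 114.89 (KO) and 292.92 (WT), and 1 of its other probe sets was higher on the KO array. With Myom3 these made 4 of 10 measured genes of the group, beside 6.72% of all measured genes at least 2-fold lower. In the other direction Sqstm1, which encodes the autophagy receptor p62, read 1496.22 on the KO array and 641.61 on the WT array. This was 2.33-fold higher, and Sqstm1 was picked out after its value was seen. It was 1 of the 10, beside 3.73% of all measured genes at least 2-fold higher. Nbr1 and Fhl2 stayed under 2-fold, with log2 ratios of -0.11 and 0.54.

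Of the 6 partners of the N-terminal and spring parts of titin, 3 were at least 2-fold lower, beside 6.72% of all measured genes. Ankrd2 and Ankrd23, muscle ankyrin repeat proteins that bind the spring region, read 97.09 and 128.09 on the KO array, against 442.50 and 389.61 on the WT array. Csrp3, the muscle LIM protein, read 78.84 on the KO array and 261.92 on the WT array. The differences were 4.56-fold, 3.04-fold and 3.32-fold. Not all of the group went this way. Ankrd1, another muscle ankyrin repeat protein, was higher on the KO array, with log2 ratios of 0.81 at its brightest probe set and 2.98 at the other. Tcap had a log2 ratio of -0.13, and Capn3 had -0.03 at its brightest probe set and 0.28 at the other.

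Of 3 Kelch proteins of the thin filament, 2 were at least 2-fold lower, beside 6.72% of all measured genes. Klhl40 is known to stabilise nebulin and leiomodin 3, and Klhl41 to act on nebulin. Klhl40 read 31.50 on the KO array and 272.34 on the WT array, at least 5.79-fold lower, and Klhl41 read 86.49 on the KO array and 533.69 on the WT array, 6.17-fold lower. Kbtbd13 read 159.71 on the KO array and 111.59 on the WT array (log2 ratio 0.52).

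In the leiomodin and tropomodulin family, which sets the pointed end of actin filaments, Lmod3, Lmod2 and Tmod1, known from striated muscle, were at least 2-fold lower, and Tmod2 and Tmod3 were under 2-fold. Lmod2 read 29.66 on the KO array and 209.93 on the WT array, at least 4.46-fold lower. Tmod1 read 42.18 on the KO array and 144.53 on the WT array, at least 3.07-fold lower. Tmod2, known from neurons, read 174.61 on the KO array and 151.77 on the WT array, and the widely expressed Tmod3 read 169.05 on the KO array and 114.93 on the WT array (log2 ratio 0.56). Lmod1 and Tmod4 were under the floor on both arrays.

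By the probe set that represents each gene, no chaperone or Smyd relative reached 2-fold. Unc45a, the widely expressed relative of Unc45b, read 257.79 on the KO array and 240.83 on the WT array (log2 ratio 0.10). By the same probe sets, the largest ratios of the 4 measured chaperones were those of the Hsp70-type Hspa8, with 5809 (KO) and 7511 (WT), and of the Hsp90 activator Ahsa1, with 548.77 (KO) and 654.34 (WT). Another probe set of Hsp90aa1, picked out after its value was seen, read 2148 on the KO array and 320.10 on the WT array, 6.71-fold higher. Smyd2, Smyd3, Smyd4 and Smyd5 had log2 ratios of -0.05, -0.06, -0.51 and -0.44, and Naca, whose muscle splice form binds Smyd1, had 0.31. Another probe set was higher on the KO array for Smyd3 (at least 1.27-fold), Smyd4 (1.19-fold) and Smyd5 (at least 1.94-fold). The remaining probe set of Smyd5 was lower (log2 ratio -0.23).

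**Figure D3:**
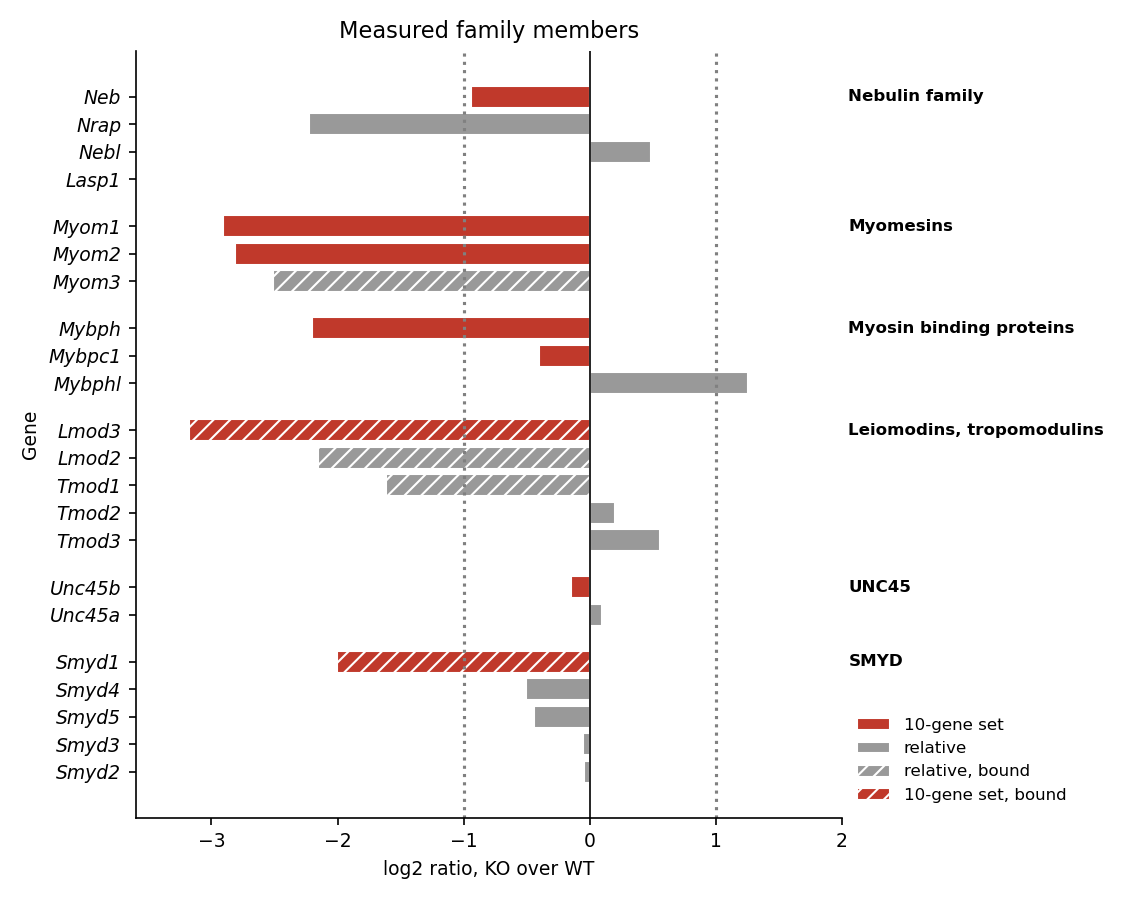
Log2 ratio, KO over WT, of the measured genes of each family, with the 10-gene set in red, relatives in grey, hatched bars where the KO value was under the floor and dotted lines at 2-fold. All 3 myomesins, Lmod2, Lmod3 and Tmod1 lie below -1, whereas Tmod2, Tmod3, Unc45a and Unc45b lie between -0.15 and 0.56. Each bar is 1 probe set, and other probe sets of some genes point the other way, among them Smyd1, Smyd3, Smyd4 and Smyd5.

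Among the lists of markers of the state of the cultures, that of differentiation was the one lower with these genes. The median log2 ratio was -2.67 for differentiation markers, -0.10 for myoblast markers and 0.12 for proliferation markers. Of 5 markers of differentiation 4 were at least 2-fold lower on the KO array, beside 6.72% of all measured genes. Their summed intensity, over all 5, was 2509 on the KO array and 6578 on the WT array. Myog, which encodes myogenin, read 487.79 on the KO array and 1754 on the WT array, and the MEF2 factor gene Mef2c read 42.26 on the KO array and 403.70 on the WT array, at least 8.58-fold lower. The fusion genes Mymk and Mymx read 60 and 49.44 on the KO array, against 381.67 and 775.76 on the WT array, and Cdkn1a, which encodes the cell cycle inhibitor p21, read 1870 on the KO array and 3263 on the WT array. All 8 myoblast markers were measured, 0 of them were at least 2-fold lower, and their summed intensities were 8361 (KO) and 8397 (WT). Both cultures therefore carried the markers of the labelled cell type. By the probe set that represents each gene, the determination factor Myod1 was the 1 marker at least 2-fold higher. It read 1751 on the KO array and 631.27 on the WT array, while Myf5 read 723.84 (KO) and 731.38 (WT). The satellite cell factor Pax7 had a log2 ratio of 0.29 at its brightest probe set. Its other probe set read 166.62 on the KO array and 68.95 on the WT array, 2.42-fold higher. The intermediate filament gene Des had a log2 ratio of -0.89, the cadherin Cdh15 -0.55 and the integrin Itga7 -0.62. The adhesion gene Ncam1 had -0.19 and the receptor subunit Chrna1 0.04. The other probe set of Des had the opposite sign (0.82), as did 1 other of Ncam1 (1.02), while the remaining probe sets of Ncam1 were lower on the KO array, by log2 ratios of -0.22 to -1.35. Of 7 measured proliferation markers, 1 was at least 2-fold lower, Mki67, with 259.94 (KO) and 578.22 (WT), while 4 had a log2 ratio above 0. The summed intensities of the proliferation list were 3576 (KO) and 3327 (WT). The part of these differences in the result was not tested. In RNA of whole cultures, fewer cells that had begun to differentiate and less RNA per such cell cannot be told apart.

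Over 7 lists of markers of other cell types, 3 of 22 measured genes were at least 2-fold lower and 1 higher, beside 6.72% and 3.73% of all measured genes. The lower ones were Myh11 (3.99-fold), a smooth muscle myosin, Fabp4 (3.64-fold), a fatty acid binding protein, and Tnnt2 (4.80-fold), a troponin made in heart and in immature skeletal muscle. The higher one was Esam, at least 2.01-fold. The other probe sets of Fabp4 and Myh11 were under the floor on both arrays. The summed intensity of the fibroblast list, of which 6 of 8 were measured, was 1866 on the KO array and 1413 on the WT array. The smooth muscle and pericyte list (3 of 6 measured) summed to 5275 (KO) and 6528 (WT), and the endothelial list (3 of 5) to 317.51 (KO) and 247.97 (WT). The adipogenic list (3 of 5) summed to 385.21 (KO) and 659.07 (WT), of which Fabp4 made 113.25 (KO) and 412.18 (WT). The macrophage list (2 of 4 measured) summed to 543.08 (KO) and 523.36 (WT) and the Schwann list (2 of 4) to 224.71 (KO) and 192.94 (WT). The cardiac list (3 of 6) summed to 662.18 (KO) and 2469 (WT), of which Tnnt2 made 479.33 (KO) and 2301 (WT), while Myh6, Nppa and Myl7 were under the floor on both arrays. No marker that stood for its gene read 0 on either array. The part of these lists in the result was not tested.

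**Figure D4:**
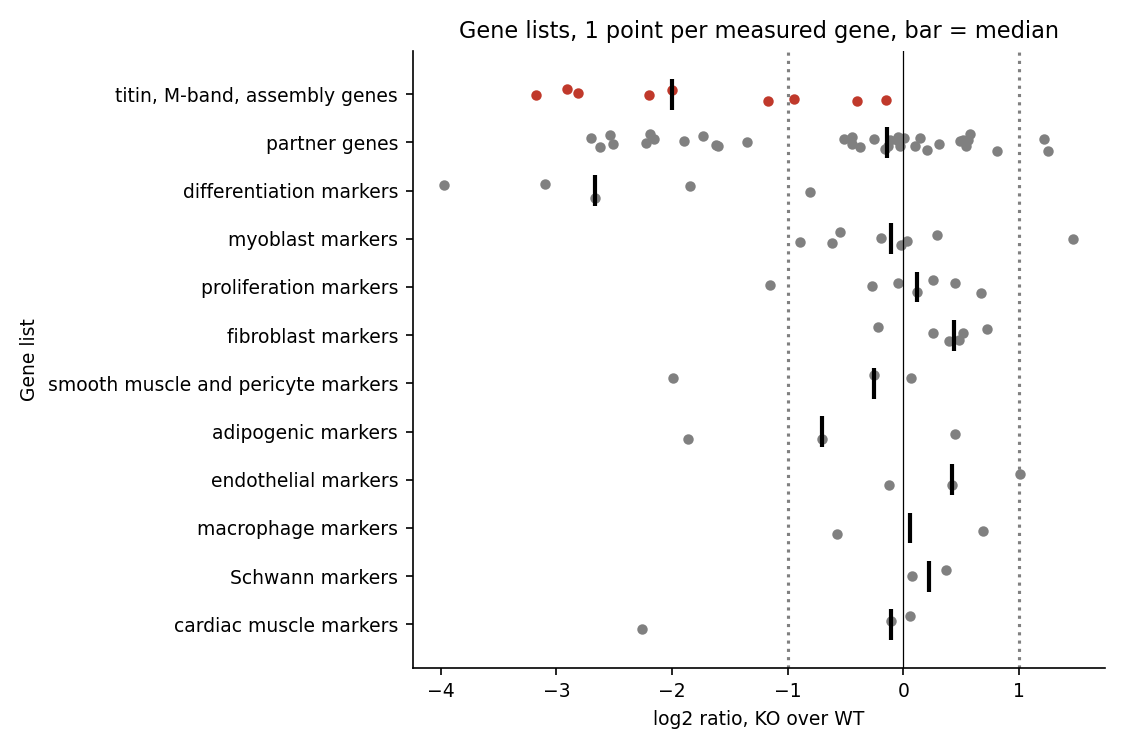
Log2 ratio, KO over WT, of each measured gene (points) in the 10-gene set, the partner list, and marker lists of the cultures' state and of other cell types, with the median as a bar and 2-fold as dotted lines. The medians were -2.00 for the 10-gene set, -0.14 for the partner genes, -2.67 for differentiation markers and -0.10 for myoblast markers.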

How the data were processed

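Total RNA of each culture was labelled as biotinylated cRNA, per the labels' protocols, and hybridised to 1 Mouse430_2 array, per the file headers. The authors deposited a linear intensity for each probe set on each array. The summary algorithm and the scaling are not given in the sources used here, and the values were used as deposited, because the means without the top and bottom 2% were 125.5 (KO) and 126.1 (WT). Scanner record fields (another kind of deposited value) were only compared between arrays. Columns left without a sample numbered 0.

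Of 45037 probe sets, 34945 had 1 symbol in the platform annotation, which can be old, 932 had several and 9160 none; only the first were used, and 34741 of these took their current symbol from a RefSeq table through the Entrez identifier. The number of arrays limits the precision. The named genes were the 10 genes with every probe set, the relatives of their families, up to 4 partner genes per group at 2-fold or the 2 largest, and the state markers. The genes and lists were chosen with earlier results of these data known. Beside the main setting, 8 other settings of scaling, floor, pseudocount and probe sets, 2 other thresholds and 2 added settings were run. The scripts, tested on simulated data, ran in Python 3.11.15, numpy 2.4.6, pandas 2.3.3 and statsmodels 0.14.6. Genes of the lists that had no named probe set were not analysed here.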

Additional observations from a re-analysis of the deposited data

How the results depend on the processing

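The count of 6 genes at least 2-fold lower was between 4 and 7 over 12 other settings, and the count of higher genes was 0 in each. The 7 was at a threshold of 1.5-fold, where 19.3% of all measured genes were lower. At 3-fold the count was 5, beside 1.51% of all measured genes. In the other settings, all at 2-fold, 3.33% to 7.58% of all measured genes were lower. Quantile, median and loess scaling left 6. The median log2 ratio of the genes moved to -1.05 (floor at the 20th percentile), -1.17 (floor at the 60th) and to -1.10 with the mean over all probe sets or over measured ones. The first of these counts Mybpc2 as a measured gene. The log2 ratio of Smyd1 reversed to 0.66 with the lower floor and without _s_at, _x_at and _a_at probe sets, to 0.092 with the mean over all probe sets and to 0.14 with the mean over measured ones, which follows from the opposed probe sets. Myom1, Myom2, Mybph and Lmod3 stayed at -2.02 or below in all settings run, and the sign of Ttn, Neb, Mybpc1 and Unc45b stayed negative, for Unc45b up to -0.001. Without _s_at, _x_at and _a_at probe sets Ttn moved to -2.44. Lmod3 moved to -2.30 with the higher floor and -2.50 with a pseudocount, which also took Myom1 to -2.22, and Myom2 moved to -2.08 with the mean over all probe sets. Smyd1 was -1.13 with the higher floor. Lower partner genes numbered 11 or 12 throughout, and higher ones 1 with a pseudocount equal to the floor, 0 at 3-fold and up to 3 elsewhere. The mean over measured probe sets and the rule that every measured probe set must pass were chosen after seeing the data. No paired analysis was possible because each genotype has 1 array. Signals near the floor limit Lmod3, Smyd1 and 6 lower partner genes to bounds.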

Other observations

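Partners of titin and Unc45b differed in direction, and the genes given here were picked out after their values were seen. Ankrd1, a muscle ankyrin repeat protein that binds the same region of titin as Ankrd2 and Ankrd23, read 5938 on the KO array and 3381 on the WT array at its brightest probe set, and 5544 on the KO array and 701.87 on the WT array at the other. Its log2 ratios were 0.81 and 2.98, opposite in sign to those of Ankrd2 (-2.19) and Ankrd23 (-1.60). Hsp90aa1, the inducible Hsp90 that works with Unc45b, read 4756 on the KO array and 4306 on the WT array at its brightest probe set, and 2148 on the KO array and 320.10 on the WT array at another. Of its other probe sets, 1 was lower on the KO array (log2 ratio -0.64). Fhl1, a LIM protein that binds titin, had log2 ratios of 0.58 and 0.71 at its 2 probe sets. The muscle creatine kinase gene Ckm, whose product is found at the M-band, read 267.01 on the KO array and 363.16 on the WT array at 1 probe set and 67.67 on the KO array and 180.42 on the WT array at the other, lower at both.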
